A study of Mus musculus with 2 samples.

Results

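The complement and coagulation factors examined here are 36 genes whose products hepatocytes secrete into plasma for the most part, 18 of the complement system and 18 of clotting and fibrinolysis. The rule picks them by gene symbol and uses no measured value, but the list was drawn up with earlier results of these data known. Of the 36 genes, 34 were measured, against 12290 measured genes in all; C3 was found under no probe set that names a single gene, and C4b only under one that also lists C4a, so neither is analysed here. Livers of Lpcat3fl/fl Albumin-Cre male mice (L-Lpcat3 KO) were compared with livers of Lpcat3fl/fl male mice without Cre (control), so that both genotypes carry the floxed Lpcat3 allele on each chromosome. In L-Lpcat3 KO mice the albumin promoter drives Cre in hepatocytes, while other liver cells keep Lpcat3. Both groups received a western diet from 7 weeks of age for 9 weeks and were studied at 16 weeks after a fast of 6 hr. RNA of 5 mice per genotype was pooled and hybridised to 1 Affymetrix array. With 1 pool per genotype there is no replicate check and no p-value for any difference below, and the number of arrays limits the precision. Lpcat3, the deleted gene, fell from a signal of 5173 in control liver to 2198 in L-Lpcat3 KO on its only measured probe set, a log2 ratio of -1.23; whether that probe set lies in the deleted part of the gene was not examined.

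Complement is a cascade of plasma proteins that marks and lyses microbes. It is started by antibody through C1, by sugar-binding lectins such as the mannose-binding lectins, or by slow spontaneous turnover of C3, and it ends in the membrane attack complex of C5b, C6, C7, C8 and C9. Coagulation is a second cascade of liver-made proteases and cofactors that converts fibrinogen to fibrin, held in check by protein C, protein S and antithrombin and undone by plasmin. Several of these proteins, fibrinogen among them, are acute phase reactants, whose synthesis rises when the liver responds to interleukin-6.

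Signal is given in the units of the deposited MAS5 values, with signals under 86.6, the median of all values, raised to that floor. All members reached the floor on both arrays. Log2 ratios are L-Lpcat3 KO over control and come from the probe set with the highest mean signal, and a gene is said to have risen or fallen where the difference was at least 2-fold. Among probe sets of the same gene, the SD of log2 ratios was 0.29 over 4476 genes, which serves as a measure of array noise but holds no spread between mice. It describes a single ratio, and a difference between the ratios of 2 genes varies more. Of the 34 members, 26 rested on 1 measured probe set.

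Most of the liver-made factors had a slightly lower signal in L-Lpcat3 KO liver. Ratios below 0 on the log2 scale were found for 31 of the 34 members, beside 48.8% of all measured genes. The exceptions were Cfp, F8 and Pros1. The median log2 ratio was -0.25 over the 16 complement genes and -0.24 over the 18 coagulation genes, beside 0.01 over all genes. At 2-fold, C8b and F11 fell and Cfp rose. These are 2 falls among 34 members, where 0.7% of all genes fell, and 1 rise, a share near the 2.7% of all genes that rose. At 1.5-fold, C8b, F11, F7 and C8a were lower, 4 of 34 beside 3.83% of all genes, and Cfp alone was higher, beside 9.07% of all genes. The same 5 genes were the only members whose log2 ratio lay farther from 0 than 2 times the SD among probe sets, 0.57. That cut nearly equals 1.5-fold, so it adds no separate support. The share of all genes past it was not counted. In bulk liver RNA, fewer hepatocytes and less RNA per hepatocyte cannot be told apart for the small shift of most members. C8b kept 26.5% and F11 46.6% of the control signal, while the summed signal of 12 hepatocyte markers went from 329657 to 300893. The part of cell composition in these 2 falls was not tested.

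**Figure D1:**
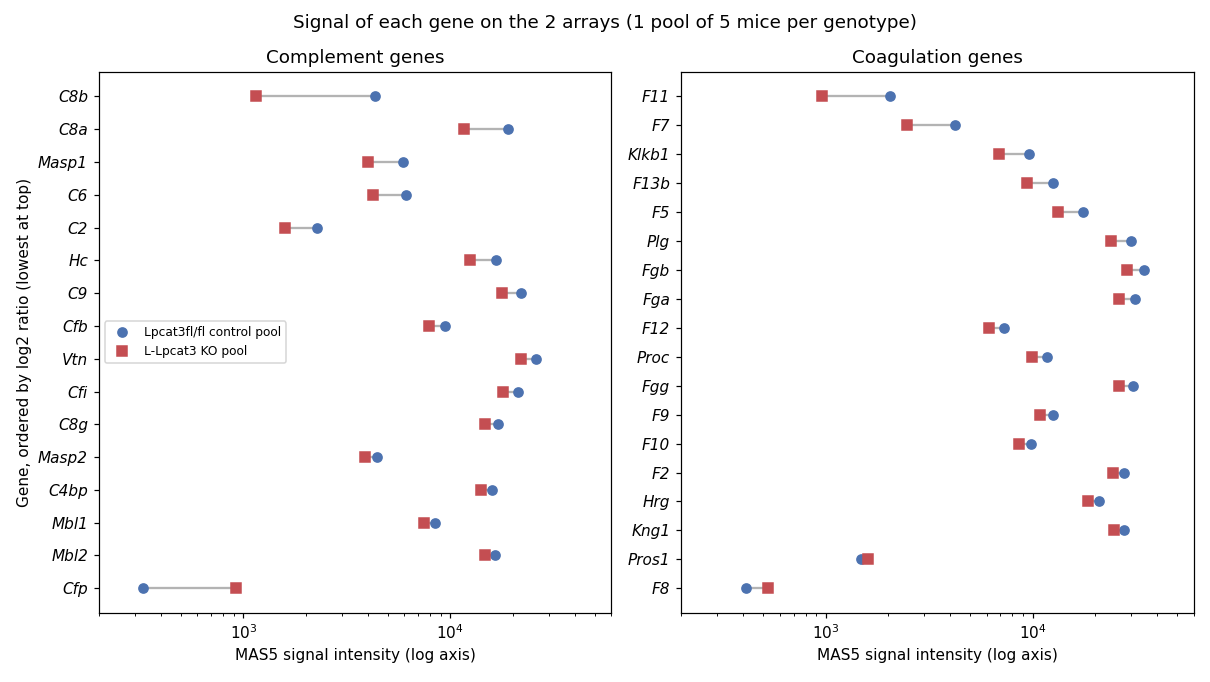
Signal of each measured complement gene (left) and coagulation gene (right) on the control array (blue circles) and the L-Lpcat3 KO array (red squares), on a logarithmic axis, ordered by log2 ratio; each point is 1 pool of 5 mice and there are no error bars. The red square lies to the left of the blue circle for 31 of 34 genes, with the widest gaps for C8b and Cfp.

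Part of this small shift was shared with other abundant transcripts. Among all genes with a mean log2 signal of at least 10, which includes 32 of the members, 57.2% were below 0 and the median was -0.04. Of the 32 members, 31 were below 0, with a median of -0.25. In this signal range 2.47% of genes were at least 1.5-fold lower and 0.479% at least 2-fold lower, beside 4 and 2 of the 32 members. The shift of all genes grew with signal. At a mean log2 signal of at least 14, 79.7% of 231 genes were below 0 and their median was -0.12, whereas all 10 members there were below 0, with log2 ratios from -0.32 for Plg to -0.16 for Kng1 and a median of -0.25. The hepatocyte markers, 11 of 12 of which had a mean log2 signal of at least 10, had a median of -0.14, also with 11 of 12 below 0. After loess normalization, which removes the trend with signal, the hepatocyte markers had a median of -0.03, with 9 of them still below 0. The 34 members had a median of -0.17, with 31 still below 0, beside a median of 0.02 over all genes. The share of all genes below 0 after loess was not counted. The size of the shift therefore depended on the scaling, whereas its direction was the same with and without loess.

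**Figure D2:**
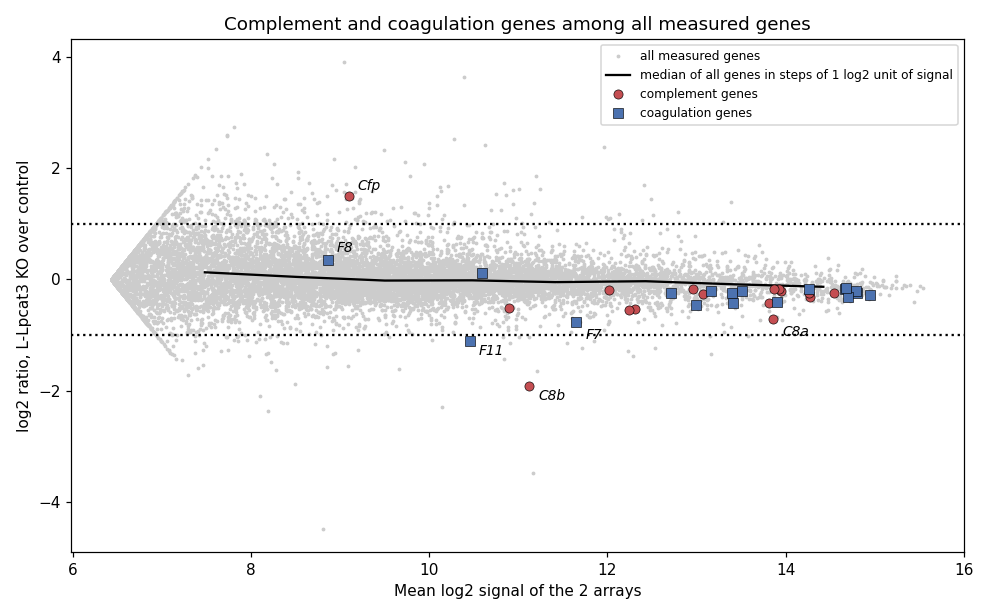
L-Lpcat3 KO to control log2 ratio against the mean log2 signal of both arrays for all 12290 measured genes (grey), complement genes (red circles) and coagulation genes (blue squares); dotted lines mark 2-fold and the black line is the median of all genes per unit of log2 signal. The line drops below 0 at high signal, and most members lie below the line.

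The largest difference was in the terminal pathway, the components that assemble into the membrane attack complex. All 6 measured genes of this group were below 0, with a median log2 ratio of -0.47. C8b, which encodes the beta chain through which C8 docks onto the growing complex, had a signal of 4337 in control liver and 1151 in L-Lpcat3 KO. This is a 3.77-fold fall, a log2 ratio of -1.91, and left 26.5% of the control signal. Only 5 of the 12290 measured genes had a lower ratio, and only 2 of the 4178 genes with a mean log2 signal of at least 10. C8a, the alpha chain, which inserts into the target membrane, went from 19049 to 11598, a log2 ratio of -0.72, so that it kept 60.9% of the control signal. C8g, the gamma chain, a lipocalin bound to the alpha chain, was at 17044 and 14684, a log2 ratio of -0.22. The log2 ratios of the genes for the chains of this one protein thus ran from -1.91 to -0.22, with C8b 1.20 below C8a. C8a, C8b and C8g each rest on 1 probe set.

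The other terminal components were closer to control. C6, which binds C5b to begin the complex, was at 6082 in control liver and 4225 in L-Lpcat3 KO, a log2 ratio of -0.53. Hc, which encodes C5, the source of the chemoattractant C5a and of C5b, was at 16565 and 12430 (-0.41). C9, which polymerises into the pore, was at 22101 and 17809 (-0.31). Without C8b, the median of the group was -0.41 over 5 genes, none of them past 2-fold and 1, C8a, past 1.5-fold.

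The genes that start complement were all lower by less than 1.5-fold on the probe sets that represent them. C2, the protease subunit of the classical and lectin C3 convertase, was at 2267 in control liver and 1596 in L-Lpcat3 KO, and its 3 probe sets ran from -0.54 to -0.35 on the log2 scale, with -0.51 on the one that represents it, which can match several transcripts. Masp1, a protease that activates the lectin pathway, was at 5893 and 4008, a log2 ratio of -0.56. Its 4 measured probe sets disagreed, with -0.56 and -0.55 on 2 of them and 0.20 and 0.23 on the others. All but the brightest, at -0.56, carry a suffix of probe sets that can match several transcripts. Masp1 is known to make several proteins by alternative splicing, and which transcripts each probe set detects was not examined. Masp2, the protease that cleaves C4 and C2, was at 4414 and 3890 (-0.18, and -0.21 on its other probe set). Mbl1 and Mbl2, the mannose-binding lectins, were each at a log2 ratio of -0.17, with signals of 8455 and 7503 for Mbl1 and of 16484 and 14645 for Mbl2. No member of this group differed by more than 2 times the SD among probe sets.

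The alternative pathway was represented by genes of different cells. Cfb, the factor B protease of the alternative C3 convertase, a liver product, went from 9438 to 7863, a log2 ratio of -0.26. Cfp encodes properdin, which stabilises that convertase and is made mainly by myeloid cells rather than hepatocytes. Its brighter probe set rose 2.81-fold, from 326 in control liver to 917 in L-Lpcat3 KO, a log2 ratio of 1.49. The other probe set of Cfp was at 176 and 169, a log2 ratio of -0.056, so the rise rests on 1 of 2 probe sets. In the same arrays 10 of 12 macrophage markers were at least 1.5-fold higher, beside 9.07% of all genes. Of them 6 were at least 2-fold higher (Marco on 1 of its 2 probe sets), beside 2.7% of all genes. The summed signal of the 12 markers went from 13926 to 29181. All 12 were above the floor on both arrays. Their part in the signal of Cfp was not tested.

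The complement regulators lay close together. Cfi, the factor I protease that inactivates C3b and C4b, was at 21334 in control liver and 17993 in L-Lpcat3 KO, a log2 ratio of -0.25. C4bp, a cofactor of factor I, was at 15987 and 14121 (-0.18). Vtn, which encodes vitronectin, an adhesive protein that also blocks insertion of the membrane attack complex, was at 25936 and 21874 (-0.25, and -0.36 on its other probe set). None reached 1.5-fold.

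**Figure D3:**
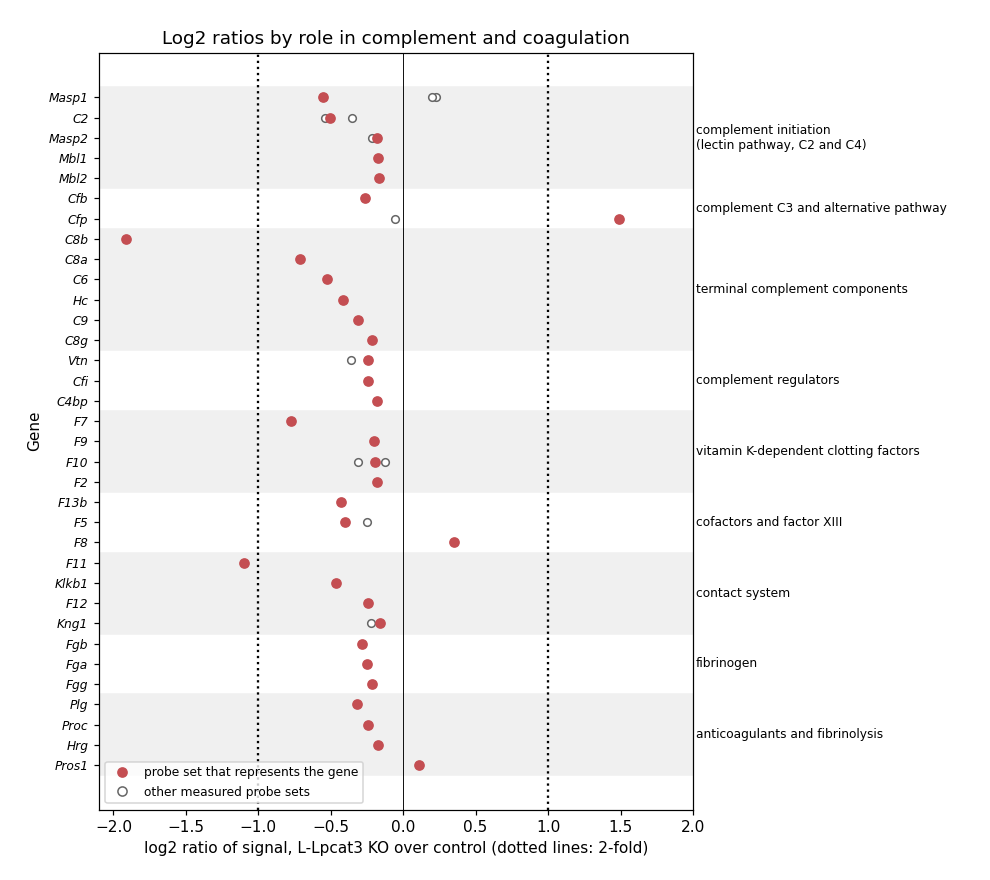
L-Lpcat3 KO to control log2 ratio for each measured gene, grouped by its role; filled points are the probe set that represents the gene, open points its other measured probe sets, and dotted lines mark 2-fold. C8b and F11 lie beyond 2-fold to the left and the brighter probe set of Cfp beyond 2-fold to the right, while Masp1 and Cfp have probe sets on either side of 0 or near it.

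In coagulation, the largest difference was in the contact system, the group of surface-activated proteases and their cofactor that starts the intrinsic pathway. F11, which encodes factor XI, the protease that activates factor IX, fell 2.15-fold, from a signal of 2058 in control liver to 959 in L-Lpcat3 KO, a log2 ratio of -1.10. It ranked 61st from the lowest among all measured genes and 14th among those with a mean log2 signal of at least 10. Klkb1, which encodes plasma prekallikrein, a close relative of factor XI, was at 9564 and 6919, a log2 ratio of -0.47. F12, the factor XII protease that starts the contact pathway, was at 7281 and 6159 (-0.24). Kng1, which encodes kininogen, the cofactor of this system and the source of bradykinin, was at 27750 and 24828 (-0.16, and -0.23 on its other probe set). All 4 genes were below 0, and F11 alone passed 2-fold. The fall of F11 rests on 1 probe set and lay close to the threshold: after centring on the hepatocyte markers its log2 ratio was -0.96, short of 2-fold.

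Among the vitamin K-dependent proteases of clotting, the gene of the extrinsic pathway stood lowest. F7, which encodes factor VII, the partner of tissue factor, went from 4200 to 2460, a log2 ratio of -0.77 that passed 1.5-fold but not 2-fold. F9, the gene deficient in haemophilia B, was at 12530 and 10872 (-0.20). F10, the factor X protease on which both pathways meet, was at 9862 and 8596, and its 3 probe sets ran from -0.31 to -0.13. F2, which encodes prothrombin, was at 27748 and 24517 (-0.18). The ratio of F7 lay below those of F9, F10 and F2 by more than the SD among probe sets, while the latter did not differ from each other beyond it. Since that SD describes a single ratio, this does not set the gap apart from array noise.

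Of the cofactors and the subunit of factor XIII, those made by hepatocytes were lower and F8 was not. F5, which encodes factor V, was at 17626 in control liver and 13342 in L-Lpcat3 KO, a log2 ratio of -0.40, and at -0.25 on its other probe set. F13b, which encodes the carrier subunit of the fibrin-crosslinking factor XIII, was at 12611 and 9368 (-0.43). F8, the gene deficient in haemophilia A, is expressed in the liver mainly by sinusoidal endothelial cells. Its signal was 412 and 525, a log2 ratio of 0.35. Of 12 liver endothelial markers 11 were above 0 and 2 rose, beside 2.7% of all genes. They were Lyve1 (1.41, but 0.56 on its other probe set) and Pecam1 (1.41). The signal of Pecam1 in control liver, 97, was close to the floor of 86.6. The lowest of the list was Stab2, at -0.04. The list median was 0.36, and the summed signal was 10185 in control liver and 13119 in L-Lpcat3 KO. All 12 were above the floor on both arrays, and their part in the signal of F8 was not tested.

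The fibrinogen genes, which encode the chains of one hexameric protein, moved together within a narrow range. Fga was at 31265 in control liver and 26260 in L-Lpcat3 KO, Fgb at 34719 and 28553 and Fgg at 30503 and 26307. Their log2 ratios were -0.25, -0.28 and -0.21, less than the SD among probe sets apart. In contrast to the chains of C8, no chain of fibrinogen stood apart from the others. The signals differ, however. The fibrinogen genes had a mean log2 signal of at least 14, where none of 231 genes passed 2-fold and 2 passed 1.5-fold. That of C8b was 11.1.

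Among anticoagulant and fibrinolytic genes no member reached 1.5-fold. Plg, which encodes plasminogen, the precursor of the fibrin-cleaving protease plasmin, was at 29794 in control liver and 23833 in L-Lpcat3 KO, a log2 ratio of -0.32. Proc, the gene of protein C, which inactivates factors V and VIII, was at 11700 and 9906 (-0.24). Pros1, the gene of its cofactor protein S, which endothelial cells also make, was at 1487 and 1604 (0.11). Hrg, which encodes histidine-rich glycoprotein, a plasminogen-binding plasma protein, was at 20905 and 18524 (-0.17), on a probe set that can match several transcripts.

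Several of these factors are encoded next to each other, and in several such pairs the size of the difference was not shared. By the gene order of the GRCm38.p6 RefSeq table, C8b lies beside C8a on chromosome 4, F11 beside Klkb1 and F7 beside F10 on chromosome 8, Cfb beside C2 on chromosome 17, and Fga between Fgg and Fgb on chromosome 3. The log2 ratio of C8b was lower than that of C8a by 1.20, that of F11 lower than that of Klkb1 by 0.63 and that of F7 lower than that of F10 by 0.57. C2 and Cfb differed by 0.24, and neighbouring fibrinogen genes by 0.04 and 0.03. The first 3 of these differences exceeded the SD among probe sets and the others did not. That SD describes a single ratio, so exceeding it does not set a difference of 2 ratios apart from array noise. Both C8b and F11 thus fell while the gene beside them did not reach 2-fold.

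The sequences just before the start of C8b and F11, which fell, and of their neighbours C8a and Klkb1, which did not reach 2-fold, are shown for comparison of these pairs. They are the 250 bases before the transcription start, 5′ to 3′ on the strand of the gene, from RefSeq on GRCm38.p6. C8b lies at chr4:104766067-104766316 on the plus strand, C8a at chr4:104876399-104876648, F11 at chr8:45262032-45262281 and Klkb1 at chr8:45294836-45295085, all 3 on the minus strand. Capitals mark matches to letters that hepatocyte transcription factors recognise.
C8b: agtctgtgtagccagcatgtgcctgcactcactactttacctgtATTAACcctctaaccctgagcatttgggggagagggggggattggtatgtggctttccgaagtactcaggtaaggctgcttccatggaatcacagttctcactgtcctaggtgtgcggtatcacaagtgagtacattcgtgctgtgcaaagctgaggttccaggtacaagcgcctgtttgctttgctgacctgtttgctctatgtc
C8a: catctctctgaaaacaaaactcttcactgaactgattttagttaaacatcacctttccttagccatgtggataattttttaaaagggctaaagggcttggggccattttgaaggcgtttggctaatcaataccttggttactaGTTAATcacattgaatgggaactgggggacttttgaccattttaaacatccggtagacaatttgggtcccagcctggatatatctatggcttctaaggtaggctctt
F11: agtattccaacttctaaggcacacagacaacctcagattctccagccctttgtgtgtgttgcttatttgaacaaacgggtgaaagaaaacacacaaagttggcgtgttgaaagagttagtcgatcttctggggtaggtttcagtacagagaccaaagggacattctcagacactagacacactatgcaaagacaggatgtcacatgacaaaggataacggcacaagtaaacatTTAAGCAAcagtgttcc
Klkb1: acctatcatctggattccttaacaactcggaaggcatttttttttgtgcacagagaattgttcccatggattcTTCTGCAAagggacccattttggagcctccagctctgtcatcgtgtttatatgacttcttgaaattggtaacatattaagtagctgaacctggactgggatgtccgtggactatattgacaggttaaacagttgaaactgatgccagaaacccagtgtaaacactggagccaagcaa

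On either strand, the letters GTTAAT of HNF1 sites, TTGCNNAA of C/EBP sites and CAAAGTCCA of HNF4 sites were searched in these windows. The motifs do not overlap in the 4 sequences shown. C8b and C8a each held 1 match to GTTAAT, beginning at -206 and -107 from the start, and F11 and Klkb1 each held 1 match to TTGCNNAA, at -17 and -177. Each pair thus held the same motif in both of its genes. Over the 28 members with an entry, unmeasured C3 among them, 9 held GTTAAT and 8 held TTGCNNAA, or 32.1% and 28.6%, beside 6.52% and 9.55% of 27025 promoters of the same length. CAAAGTCCA was in none of the 28 and in 0.381% of all. The 27025 promoters were not limited to genes expressed in the liver, so whether other hepatocyte genes hold these letters as often was not examined. A match is a description of letters and not a site of binding.

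The wider pathways, with other genes of complement and coagulation listed apart from the members, lay on both sides of 0. Of these, 13 of 22 other complement genes measured were above 0 with a median of 0.12, and 14 of 27 other coagulation genes with a median of 0.03. Itgax, F13a1, Procr and Plat were below the floor in control liver and had to lie above 0. A2m was below it in L-Lpcat3 KO and had to lie below 0. The counts and medians include these genes, so they do not show a direction. Log2 ratios of single genes are given in parentheses. Of the 22 other complement genes, 7 rose and none fell, beside 2.7% of all measured genes that rose and 0.7% that fell. The rises were the C1q chains C1qa (1.54), C1qb (1.62) and C1qc (1.24), the anaphylatoxin receptor C3ar1 (1.36, and 0.89 at the lowest of 3 probe sets), the integrin genes Itgb2 (1.61) and Itgax (at least 1.59, below the floor in control liver), and the decay accelerator Cd55 (1.11, and 0.53 at the lowest of 3 probe sets). The 3 probe sets of C1qb ran from 0.73 to 1.62. C1ra and C1s1, the liver-made proteases of C1, were at -0.42 and -0.17, and Serping1, their inhibitor, was at -0.21, whereas Colec11, a collectin of the lectin pathway, was at 0.26 and at 0.51 on its other probe set. Of the 27 other coagulation genes 4 rose and none fell, beside the same shares of all genes. They were Anxa2 (1.62, but 0.05 on its other probe set), F13a1 (at least 1.18, likewise below the floor in control liver), Fgl2 (1.06) and Vwf (1.02). Antithrombin (Serpinc1) was at -0.20, heparin cofactor II (Serpind1) at -0.42 and antiplasmin (Serpinf2) at -0.46. The enzymes that carboxylate vitamin K-dependent factors and recycle vitamin K, Ggcx and Vkorc1, were at -0.11 and -0.19.

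No gene of the acute phase list or of the hepatocyte transcription factors fell on the probe set that represents it. Of 26 acute phase genes, Lcn2 (1.37) and Orm2 (1.11) rose, beside 2.7% of all genes, and the list median was -0.05. The receptor gene Il6ra, through which interleukin-6 drives this response, was at -0.76, with a signal of 1623 in control liver and 960 in L-Lpcat3 KO, and at -0.69 on its other probe set. Saa4, a constitutive serum amyloid A gene of the liver, was at 17186 and 10417 (-0.72), and its other probe set passed 2-fold lower. Il6ra and Saa4 are low examples of a list with 15 genes below 0 and 11 above. Saa1, Saa2 and Saa3 were at 0.07, 0.42 and 0.45, and Orm3 was at 0.98. None of 13 hepatocyte transcription factors reached 2-fold, and their median was -0.18. Hnf4a was at -0.28 (-0.56 on another of its 4 probe sets), Foxa3 at -0.55, Hlf at -0.57, Cebpa at -0.07 and Cebpd at 0.68 (0.10 on its other probe set).

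**Figure D4:**
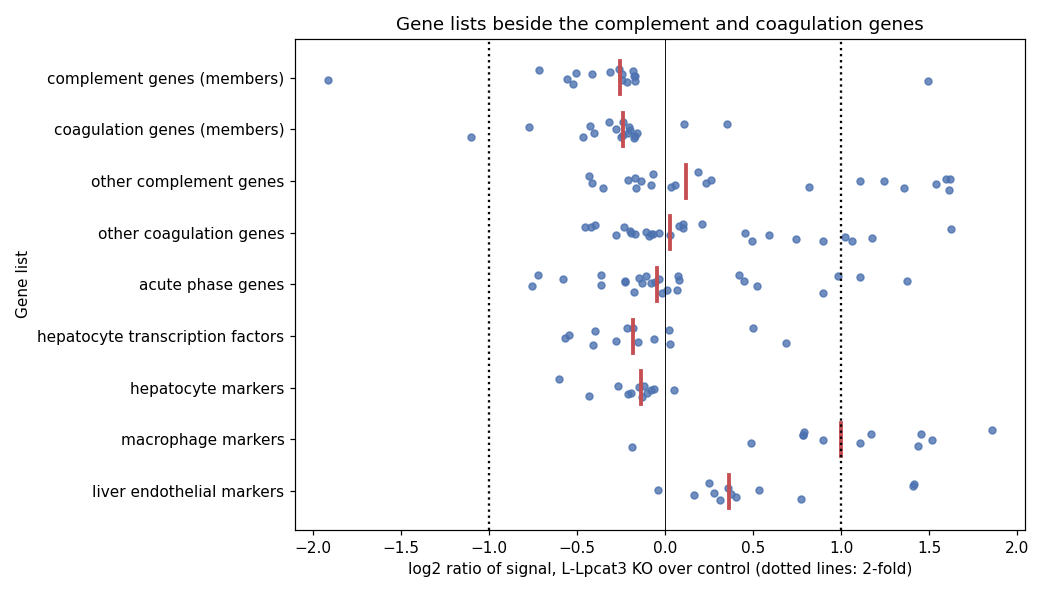
L-Lpcat3 KO to control log2 ratio for each measured gene of 9 lists, with the list median as a red bar and 2-fold as dotted lines; vertical scatter within a list has no meaning. The complement and coagulation genes have medians of -0.25 and -0.24 and the hepatocyte markers of -0.14, while 11 of 12 macrophage markers lie above 0.

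Markers of other cells did not all move alike. Hepatocyte markers ranged from -0.61 for Hal to 0.05 for Alb and summed to 329657 in control liver and 300893 in L-Lpcat3 KO. Stellate cell and fibroblast markers rose in 4 of 12 genes (median 0.57), beside 2.7% of all genes. The range ran from -0.78 for Lum to 1.83 for Tagln. Among the rises, Col1a1 and Col3a1 were each at 1.07, but at 0.47 and 0.79 on their other probe sets. Of the 6 lymphocyte markers measured, 4 were below the floor in control liver, so they were measured through the L-Lpcat3 KO array alone and had to be higher there. The others, Ighm (2.52, and from 1.03 to 2.58 over its 7 probe sets) and Jchain (1.94), rose. Of the 6 neutrophil markers measured, 4 were below the floor on 1 array, as were 2 of the 5 platelet markers, so their counts and medians are not given. Their part in the lower signal of the complement and coagulation genes was not tested.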

How the data were processed

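Liver RNA pooled from 5 mice per genotype was hybridised by the authors to 2 Affymetrix Mouse Genome 430 arrays. The deposited values are linear MAS5 signal intensity (version not given), scaled by the authors, each array to a mean of 500 once the highest and lowest 2% of values are trimmed. This scaling assumes that most transcripts are equal. The upper quartile was 400 and 410. Depth does not apply to arrays.

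Of 45101 probe sets, 34958 had 1 gene symbol in the platform annotation, updated through the gene identifier to RefSeq GRCm38.p6, and 932 with several were left out. The floor, the probe set of highest signal per gene and the 2-fold threshold are as described above. With 1 array per genotype no test was made. The counting step was tested on simulated data, made from the control array with known changes and random noise. These hold no spread between mice, so they check the counting and not the differences reported here. All members were named or counted, with both signals for those past 1.5-fold or with probe sets that disagree and at least 1 per role. Of other pathway genes those past 2-fold were named, and of the marker and acute phase lists at most 3; any further example was picked with its value known. The members and lists were chosen with earlier results of these data known, and the limits of mean log2 signal, 10 and 14, after seeing the data. Alternatives were 3 scalings, 3 treatments of low values, 3 choices of probe sets, 2 other folds and centring on hepatocyte markers. Tools were matplotlib 3.10.9, statsmodels 0.14.6, pandas 2.3.3, numpy 2.4.6 and scipy 1.17.1 under Python 3.11.15.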

Additional observations from a re-analysis of the deposited data

How the results depend on the processing

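Many of the 339 log2 ratios of single members under the alternatives could not change by construction. The floor at the 25th percentile altered no member. For the 26 members with 1 measured probe set, the mean and the dimmest probe set repeat the main value. Of the 339 ratios, 338 kept their sign. The exception was Cfp, at -0.056 on its dimmer probe set, 0.72 as the mean of both and 1.18 with the floor at the 75th percentile. Accordingly, the count of risen complement genes went from 1 to 0 with the dimmer probe set, with the mean of probe sets and at 3-fold. C8b fell by at least 2-fold under all 10 alternatives, between -1.91 and -1.78. C8b and F11 each have 1 probe set, above every floor tried. The other floors and the choices of probe sets therefore could not change their ratios. F11 ranged from -1.10 to -0.96, and centring on the hepatocyte markers, an alternative chosen after seeing the data, brought the count of fallen coagulation genes from 1 to 0, as did 3-fold. At 1.5-fold, 2 complement and 2 coagulation genes were lower. The median of the complement genes was -0.18 with quantile normalization and -0.12 with centring on hepatocyte markers, and that of the coagulation genes was -0.15, -0.17 with loess and -0.10. Centring on the hepatocyte markers moved the median of all genes from 0.01 to 0.15. Masp1 was at -0.17 as the mean of its probe sets.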
